A study of Homo sapiens with 6 samples.

Results

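The RNA of 10 genes whose surface proteins mark the stages of a developing T cell was followed here: CD34, CD38, CD7, CD5, CD2, CD1A, CD1E, CD4, CD8A and CD8B. The cells were the leukaemia line RPMI-8402, which derives from T-cell acute lymphoblastic leukaemia (T-ALL). Protein at the surface was not measured. The genes were chosen by symbol, and each was found among the 63677 genes of the count table; CD4 had more than 1 identifier, and the one with the highest total count was used. A filter removed genes with low counts and left 15949 for testing, among them 6 of the 10 markers (CD34, CD38, CD7, CD5, CD2 and CD4).

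In the thymus, progenitors arrive carrying CD34 and CD7, gain CD5, CD2 and CD38 as they commit to the T lineage, pass through a cortical stage that carries CD1 proteins together with CD4 and CD8, and leave with CD4 or CD8 alone. CD4 and CD8 are the coreceptors that hold the kinase LCK next to the T-cell receptor; CD8 is built from an alpha chain (CD8A) and a beta chain (CD8B). T-ALL blasts are commonly staged by these same proteins, and lines of this leukaemia often keep only some of them.

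The cells carried Cas9 stably and were grown without tetracycline in the serum. The DMSO group (labelled control) received the solvent, and the DOX group (labelled MYCN_knockout) received doxycycline, which switches on guide RNAs; the series text names MYC and MYCN as their targets. Cells of both groups were harvested after 72 hours, with 3 libraries per group. The labels do not say whether the line is 1 clone or whether a group's libraries are separate cultures, and p-values therefore measure only how far these libraries vary, possibly for technical reasons. Libraries carry the numbers of their count columns, which are 11, 23 and 35 for DMSO and 12, 24 and 36 for DOX. Doxycycline given to cells lacking guides was not analysed here.

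Library totals ran from 28602145 to 29204148 counts. MYCN stood at 76.8, 109.5 and 86.9 CPM (read counts relative to the library's total, adjusted with TMM factors) in DMSO 11, 23 and 35 and at 46.2, 50.0 and 53.7 CPM in DOX 12, 24 and 36, with no overlap. MYC stood at 279, 201 and 256 CPM in DMSO against 206, 200 and 193 CPM in DOX, with overlapping groups. By edgeR's quasi-likelihood test, adjusted over all genes after Benjamini and Hochberg, neither target passed 0.05 (adjusted p = 0.0726 for MYCN and 0.176 for MYC). MYCN was called lower by DESeq2 with all libraries (log2 fold change -0.87, adjusted p = 8.05e-06) and by edgeR with no filter (-0.88, adjusted p = 2.78e-09) or without DMSO 11 (-0.98, adjusted p = 2.26e-07). MYC was called by none of these (adjusted p = 0.149, 0.0861 and 0.0566). DMSO 11 stood apart from its own group: over genes of at least 10 CPM its root mean square log2 distance was 0.41 to 0.43 to the other DMSO libraries and 0.18 to 0.21 to the DOX libraries. In some other genes it lay with its own group. Its MYCN level was above every DOX library. The activation marker CD69 stood at 0.322 CPM in it (9 counts) against 0.797 to 0.835 in DOX (23 to 24 counts). The LCK adaptor gene UNC119 stood at 23.9 CPM against 31.6 to 34.9. CD69 was chosen after its values were seen, and UNC119 because DESeq2 called it with DMSO 11 counted as DMSO. CD69 and UNC119 are therefore no test of the label, and the share of all genes lying with either group was not counted. Whether DMSO 11 carries the right label was not tested; if it does not, every DMSO mean here changes its meaning. The tests of the targets and markers, and the counts of calls in each gene list except those of other cell types, are therefore given with and without DMSO 11.

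All 8 T lineage markers (the CD3 chains, LCK, PTCRA, TRAT1 and BCL11B) were above the filter, with summed levels of 1951 to 2088 CPM in DMSO and 1831 to 1916 CPM in DOX, without overlap. Such a sum is weighted to its highest genes. Taken singly, 2 of the 8 were lower in DOX without overlap and 0 higher, against 15.6% and 14.6% of all tested genes. DESeq2 called 1 of the 8 lower, against 6.89% of all genes: PTCRA, the surrogate alpha chain of the early T-cell receptor, at 6.80 ± 1.19 CPM in DMSO and 4.11 ± 0.139 in DOX (DESeq2 adjusted p = 0.00786; edgeR adjusted p = 0.0892). Without DMSO 11 edgeR called 4 of the 8 lower and 1 higher, against 25.7% and 23.7% of all genes. Of the markers of other cells, all 8 myeloid and all 5 erythroid genes were under 1 CPM in every library, as were 4 of 8 B cell, 5 of 7 NK cell and 4 of 5 fibroblast genes. The B cell genes summed to 79.9 to 86.5 CPM in DMSO and 74.1 to 78.3 CPM in DOX, mostly from the SRC-family kinase gene BLK (77.0 and 68.8 CPM on average), while MS4A1 had 0 counts. The NK cell genes summed to 38.6 to 48.4 CPM and 37.4 to 39.9 CPM, mostly from the granule gene NKG7 (37.8 and 32.8 CPM), while NCR1 had 0 counts. In a bulk culture, fewer cells carrying a marker and less RNA per cell cannot be told apart.

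CD34 and CD2 are the 2 markers that varied most between libraries among those above 1 CPM, and both were lowest in DMSO 23 and DMSO 35. The 250 bases before their start sites are printed because these members varied most; capitals mark each E-box of the form CANNTG on either strand. They are from RefSeq on GRCh38.p14, another build than the authors' hg19, and lie at chr1:207911126-207911375 on the minus strand (CD34) and chr1:116754180-116754429 on the plus strand (CD2).
CD34: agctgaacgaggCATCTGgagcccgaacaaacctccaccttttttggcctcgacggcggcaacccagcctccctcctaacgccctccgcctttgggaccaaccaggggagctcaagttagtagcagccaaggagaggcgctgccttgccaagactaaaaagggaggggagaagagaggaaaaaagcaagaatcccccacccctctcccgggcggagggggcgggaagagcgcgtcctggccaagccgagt
CD2: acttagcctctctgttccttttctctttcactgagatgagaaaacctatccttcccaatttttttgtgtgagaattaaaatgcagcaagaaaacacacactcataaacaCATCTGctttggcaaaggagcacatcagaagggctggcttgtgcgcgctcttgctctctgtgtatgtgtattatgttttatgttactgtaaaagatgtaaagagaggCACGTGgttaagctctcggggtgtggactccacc
CD2 holds a CACGTG, the E-box bound by MYC with MAX, whose first base lies 34 bases before the start, and a CATCTG at 141 bases before it. CD34 holds a single CATCTG at 238 bases before its start and no CACGTG. Searching both strands of 35116 promoter windows of the same length, CACGTG was in 6.34% and CANNTG, which includes it, in 61.8%. Promoter windows were matched for 6 of the 10 markers (CD1A, CD1E, CD2, CD8A, CD34 and CD38), and CD2's was the only one of these 6 with CACGTG. A match is a description of the letters and not a measured binding site.

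The 10 markers fell into an expressed and a near-silent set. CD34, CD5, CD7, CD38 and CD2 were above 1 CPM in every library, and the other 5 (CD8A, CD4, CD1A, CD1E and CD8B) were under 1 CPM in every library. Per kilobase of exon, the mean level over the 6 libraries was 122.8 CPM per kb for CD34, 44.4 for CD5, 36.6 for CD7, 9.28 for CD38 and 7.50 for CD2. CD34 ranked 235 among 15462 tested genes with a known length, CD5 986, CD7 1262, CD38 5278 and CD2 6003. CD8A was highest of the near-silent set, at 0.0994 CPM per kb, and 2.72% of tested genes lay below it. CD4 stood at 0.0743 CPM per kb, CD1A at 0.0361, CD1E at 0.0156 and CD8B at 0.00614. In this order CD34, CD5, CD7 and CD38 did not overlap with each other in any library, while CD38 (8.72 to 10.1 CPM per kb over libraries) and CD2 (3.19 to 11.7) did. Each gene of the near-silent set overlapped with its neighbour.

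**Figure D1:**
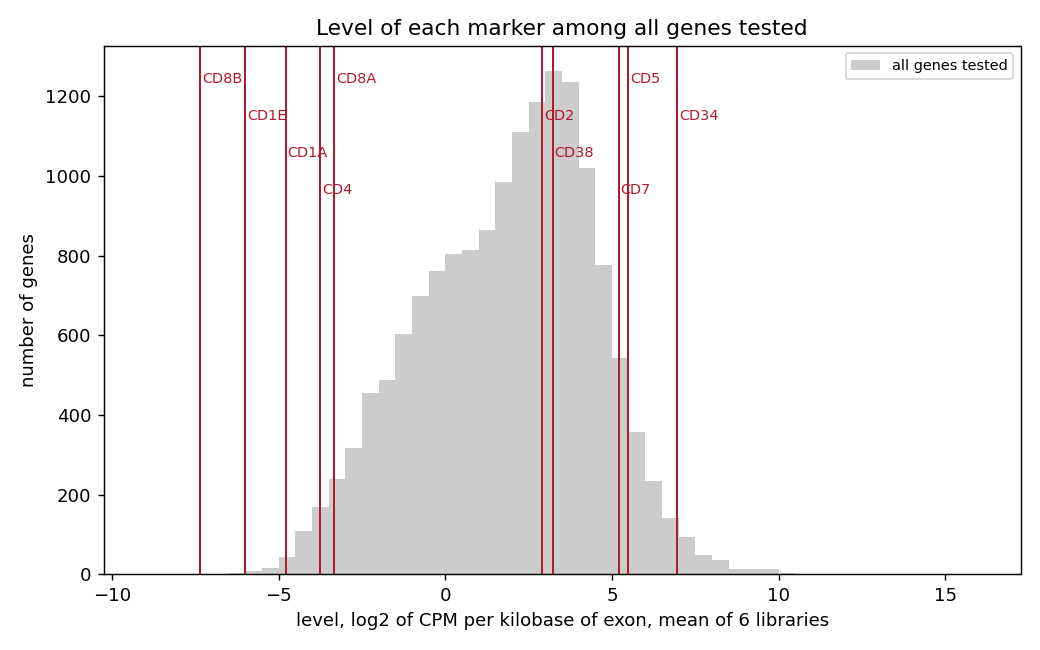
Histogram of the level of all tested genes (horizontal axis, log2 of CPM per kilobase of exon, mean of 6 libraries; vertical axis, number of genes), with a line for each marker. CD34, CD5 and CD7 lie in the right tail, CD38 and CD2 near the peak, and the 5 cortical and coreceptor genes at the far left.

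The first group of results concerns the progenitor markers. CD34, a sialomucin carried by blood stem cells and the earliest thymic progenitors, stood at 1205, 761 and 859 CPM in DMSO 11, 23 and 35 and at 1339, 1292 and 1335 CPM in DOX 12, 24 and 36. Every DOX library lay above every DMSO library, and DMSO 11 was the DMSO library nearest to DOX. The group means were 942 ± 234 CPM in DMSO and 1322 ± 26.1 CPM in DOX (SD, n = 3 each), and edgeR gave a log2 fold change of 0.49 ± 0.16 (SE). CD34 did not pass edgeR's quasi-likelihood test over all genes (adjusted p = 0.127; unadjusted p = 0.0169), and the two-sided exact permutation test gave p = 0.1, the smallest that 3 against 3 allow. DESeq2 put it at the threshold, with an adjusted p of 0.0527, and at 0.0492 when run after edgeR's filter on low counts; in the authors' deposited table its log2 fold change is 0.48 (adjusted p = 0.0539). Without DMSO 11 CD34 passed edgeR's test, at 0.71 ± 0.08 on the log2 scale (adjusted p = 4.38e-07), in a fit that called 49.4% of its 16412 genes. On the log2 CPM scale the DOX mean exceeded DMSO 11 by 0.13 and the mean of DMSO 23 and DMSO 35 by 0.71. DMSO 11 was itself higher than these 2 by 0.58. Among all tested genes, 18.0% had a larger absolute fold change than CD34. These include genes with few counts, and CD34 was not compared with genes of a similar level.

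CD38, an ectoenzyme that breaks down NAD and is carried by committed thymocytes, was nearly level. It stood at 63.9, 59.8 and 63.2 CPM in DMSO 11, 23 and 35 and at 64.1, 61.3 and 69.3 CPM in DOX 12, 24 and 36. The groups overlapped and the log2 fold change was 0.06 ± 0.08, with an approximate 95% interval of -0.10 to 0.22 (edgeR adjusted p = 0.665); without DMSO 11 it was 0.08 (adjusted p = 0.392). In human progenitors the balance of the CD34 and CD38 proteins is used to grade immaturity. The ratio of their RNA was therefore computed within each library, where library scaling has no part. The log2 ratio of CD34 to CD38 was 4.24, 3.67 and 3.76 in DMSO 11, 23 and 35 and 4.38, 4.40 and 4.27 in DOX 12, 24 and 36. All DOX libraries lay above all DMSO libraries, by 0.46 on average, with DMSO 11 within 0.11 of the DOX mean. The two-sided exact permutation p was 0.1, the smallest possible, and 0.3 after Benjamini-Hochberg adjustment over the 3 ratios computed.

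**Figure D2:**
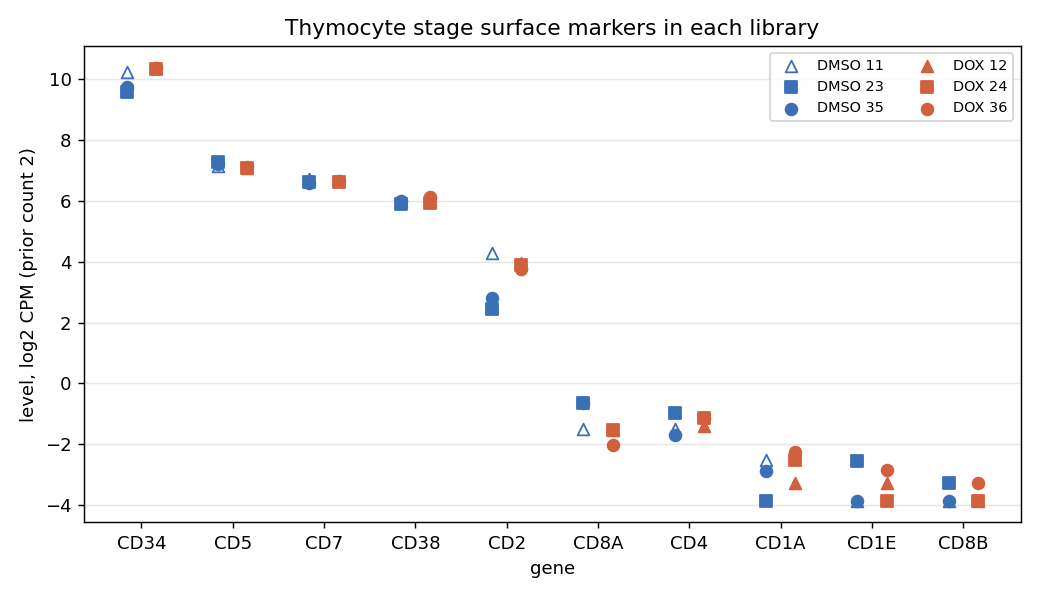
Level of each marker (vertical axis, log2 CPM with a prior count of 2) in each library, DMSO in blue and DOX in red, with DMSO 11 as an open triangle. CD34 and CD2 show DMSO 11 beside the DOX libraries and apart from DMSO 23 and DMSO 35; CD5, CD7 and CD38 are tight in both groups.

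The pan T cell markers came next. CD7, an immunoglobulin-family protein that appears first on the T lineage and is kept by nearly all T-ALL, stood at 104.6, 98.1 and 95.8 CPM in DMSO 11, 23 and 35 and at 100.9, 99.2 and 102.0 CPM in DOX 12, 24 and 36. The DOX values lay inside the DMSO range, the log2 fold change was 0.017 ± 0.076, and the approximate 95% interval ran from -0.13 to 0.17 (edgeR adjusted p = 0.901); without DMSO 11 it was 0.05 (adjusted p = 0.498). CD5, a scavenger-receptor protein that dampens antigen receptor signals, stood at 142.4, 155.1 and 148.5 CPM in DMSO and at 135.8, 136.2 and 139.4 CPM in DOX. Every DOX library lay below every DMSO library, but by little: the log2 fold change was -0.12 ± 0.08 and the interval -0.27 to 0.03, with an edgeR adjusted p of 0.349 and an exact permutation p of 0.1. Without DMSO 11 the CD5 value was -0.15 with an adjusted p of 0.0543. The log2 ratio of CD7 to CD5 was -0.45 in DMSO 11 and -0.46 to -0.43 in DOX, against -0.66 and -0.63 in DMSO 23 and 35 (exact permutation p = 0.3; adjusted 0.4). The DOX mean of this ratio exceeded the DMSO mean by 0.13, and by 0.20 without DMSO 11.

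CD2, the adhesion receptor that binds CD58 on partner cells, varied more than any other expressed marker. It stood at 19.6, 5.35 and 6.96 CPM in DMSO 11, 23 and 35 and at 15.5, 14.7 and 13.5 CPM in DOX 12, 24 and 36. DMSO 11 held the highest level of all 6 libraries and the other DMSO libraries the lowest, so the groups overlapped. On the log2 CPM scale the DOX mean minus DMSO 11 was -0.43, and the DOX mean minus that of DMSO 23 and DMSO 35 was 1.24. Over all libraries edgeR gave a log2 fold change of 0.46 ± 0.41 (adjusted p = 0.492). Without DMSO 11 it was 1.24 ± 0.12 with an adjusted p of 1.04e-07, a call that thus rests on leaving out that library. The log2 ratio of CD2 to CD5 was -2.86 in DMSO 11, -4.84 and -4.40 in DMSO 23 and 35, and -3.36 to -3.13 in DOX (exact permutation p = 0.4; adjusted 0.4). The difference of group means in this ratio was 0.80, and it became 1.39 without DMSO 11 and 0.40 without DMSO 23.

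**Figure D3:**
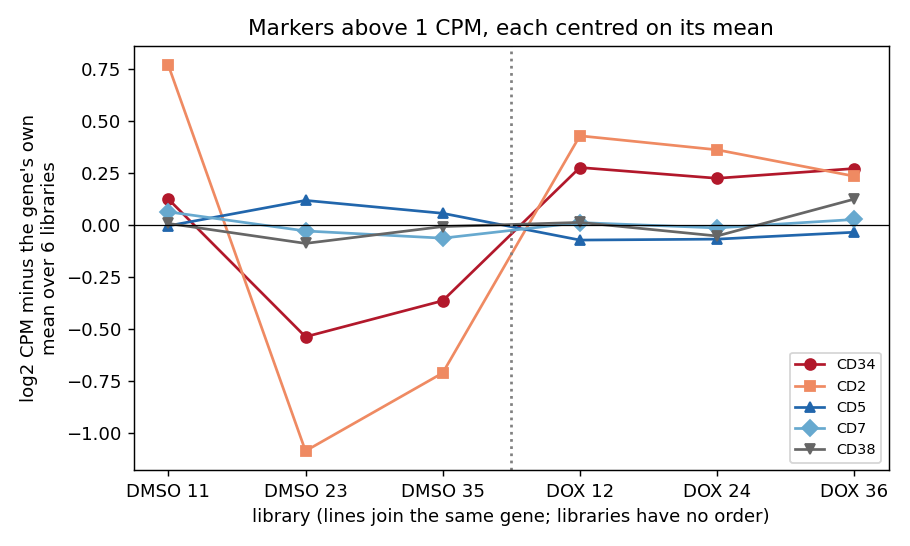
For the 5 markers above 1 CPM, log2 CPM minus the gene's own mean over 6 libraries (vertical axis) in each library (horizontal axis; the dotted line parts DMSO from DOX). CD2 runs from -1.09 in DMSO 23 to 0.77 in DMSO 11 and CD34 from -0.54 to 0.28, while CD5, CD7 and CD38 stay between -0.09 and 0.13.

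The cortical CD1 genes, whose proteins present lipids, were close to silent. CD1A had 3, 0 and 2 counts in DMSO 11, 23 and 35 and 1, 3 and 4 counts in DOX 12, 24 and 36, and CD1E had 0, 3 and 0 against 1, 0 and 2. Summed over a group, CD1A had 5 counts in DMSO (exact Poisson 95% interval 1.62 to 11.7, counting error only) and 8 in DOX (3.45 to 15.8), and CD1E had 3 in each. A library with 0 counts allows up to 3 counts, or about 0.102 CPM in DMSO 23, and no difference was detected in these genes. Tested with no filter, CD1A had a log2 fold change of 0.64 ± 0.94 (edgeR adjusted p = 0.743). Their relatives CD1B and CD1C were as low, with at most 7 and 1 counts in a library, and CD1D, which presents lipids to NKT cells, had 20 to 29.

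The coreceptors were likewise near silent. CD4 had 8, 13 and 7 counts in DMSO 11, 23 and 35 and 9, 11 and 11 in DOX 12, 24 and 36, with a log2 fold change of 0.16 ± 0.35 (edgeR adjusted p = 0.795) and an approximate 95% interval of -0.53 to 0.85; without DMSO 11 it was 0.09 (adjusted p = 0.881). CD8A had 8, 17 and 17 counts in DMSO and 8, 8 and 5 in DOX. DMSO 11 tied with DOX 12 and DOX 24 in counts, and after scaling stood just above them (0.286 against 0.277 and 0.280 CPM). The group sums were 42 counts in DMSO (exact Poisson 95% interval 30.3 to 56.8) and 21 in DOX (13.0 to 32.1). CD8A did not pass the filter with all libraries; tested with no filter its log2 fold change was -0.98 ± 0.46 with an edgeR adjusted p of 0.238. Without DMSO 11 it passed the filter and edgeR's test, at -1.23 ± 0.39 (adjusted p = 0.0138), but not DESeq2's (adjusted p = 0.140). CD8A entered the edgeR fit only through DMSO 23 and DMSO 35, the libraries where it was highest. No DOX library reached the filter's minimum count of 10, so this call is no support for a lower level in DOX. CD8B had 1 count in DMSO and 1 in DOX, and its near-identical pseudogene copy CD8BP had 0 in every library. The ratios of CD4 to CD8A, CD8A to CD8B and CD1A to CD1E were not computed because a gene in each was under 1 CPM in every library.

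Counted together, edgeR called 0 of the 6 tested markers, where it called 5 of 15949 genes (0.0313%). At an unadjusted edgeR p under 0.05 stood 1 marker, CD34, against 26% of all genes. DESeq2 called 0 of the 5 markers with an adjusted p, against 9.96% of all genes (3.08% higher and 6.89% lower). The limma voom fit called 0 of the 6 tested markers, where it called 2 genes higher and 3 lower of 15949. DESeq2 after edgeR's filter called 1 of 5, CD34, against 9.81%. Without DMSO 11 edgeR called 3 of 7 markers, CD34 and CD2 higher and CD8A lower. Of all genes it called 49.4% (23.7% higher and 25.7% lower). CD8A entered this fit only through the other DMSO libraries, where it was highest, so its call is no support for a lower level. Of the 6 markers tested with all libraries, this fit called 2 higher and 0 lower. With so few markers, no difference from the share of all genes can be told. DESeq2 without DMSO 11 called 2 of 7, CD34 and CD2, against 39.1%. DOX and DMSO libraries did not overlap in 2 of the 6 tested markers, CD34 higher and CD5 lower, against 30.2% of all tested genes (14.6% higher and 15.6% lower). The median log2 fold change of the 6 was 0.11, and that of all genes -0.0031.

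**Figure D4:**
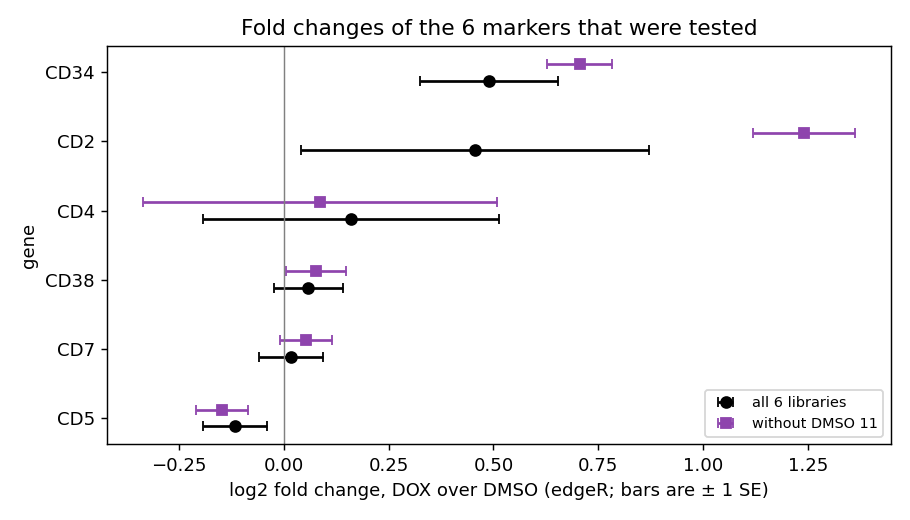
Log2 fold change of DOX over DMSO (horizontal axis, edgeR, bars ± 1 SE) for the 6 tested markers, with all libraries (black circles) and without DMSO 11 (purple squares). CD2 moves from 0.46 to 1.24 and CD34 from 0.49 to 0.71, and the other 4 stay within 0.17 of zero.

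The genes whose profile over the 6 libraries was nearest to each marker were found by the root mean square difference of centred log2 CPM among 9113 genes of at least 10 CPM. For CD34 they were TTC3, KIAA0226 and MYO9B, at 0.019, 0.030 and 0.032, where the median gene lay at 0.34. TTC3, for example, stood at 246, 158 and 180 CPM in DMSO 11, 23 and 35 and at 275, 269 and 283 CPM in DOX. For CD2 they were the potassium channel KCNH2, L1TD1 and the chaperone HSP90AA1, at 0.066, 0.11 and 0.13, against a median of 0.67. HSP90AA1, which has near-identical pseudogene copies that can share its reads, showed the same high DMSO 11, with 1484, 534 and 587 CPM in DMSO and 1395, 1371 and 1297 CPM in DOX. CD34 and CD2 themselves lay 0.38 apart. Seen from CD34, 60.4% of genes were nearer than CD2, and seen from CD2, 3.91% were nearer than CD34. The measure counts the size of differences as well as their direction, and CD2 varied more than CD34. The nearest pair of these 5 markers was CD7 and CD38, 0.059 apart. Seen from CD7, 5.09% of genes were nearer than CD38, and seen from CD38, 1.64% were nearer than CD7. Both varied little, and genes that vary little lie close by this measure. Nearest to CD5 were PTPN9, ARHGAP30 and FAM65B, nearest to CD7 BAG6, PDDC1 and BSDC1, and nearest to CD38 ZNF407, CLMN and NUDT3, each within 0.027.

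Other surface genes of the same stages gave a mixed picture. Of 10 immature and progenitor genes, 5 were tested and none was called by edgeR or DESeq2 (median log2 fold change -0.07); without DMSO 11 edgeR called 1 higher and 1 lower, against 23.7% and 25.7% of all genes. MME (CD10), a peptidase of early lymphoid cells, was at 535 ± 14.7 CPM in DMSO and 567 ± 17.8 in DOX, and CD99 at 448 ± 32.1 and 425 ± 16.1. The stem cell kinase gene KIT and the myeloid gene CD33 had 0 counts in every library, and FLT3 and PROM1 were under 1 CPM in every library, so CD34 was expressed without these. Of 8 CD1 family and lipid loading genes, 4 were tested and none was called by either tool (median 0.02), and without DMSO 11 edgeR called 1 higher and 1 lower; the saposin precursor PSAP was at 1057 ± 147 and 1055 ± 45.9 CPM and the sorting subunit AP3B1 at 70.9 ± 11.2 and 73.5 ± 3.60 CPM.

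Of 13 later thymocyte surface genes, 11 were tested, edgeR called 0 and DESeq2 called 3 higher and 1 lower, against 3.08% and 6.89% of all genes (median 0.04). Without DMSO 11 edgeR called 5 of the 11 higher and 4 lower, against 23.7% and 25.7% of all genes. The thymus-homing receptor CCR9 stood at 120.3, 59.9 and 69.7 CPM in DMSO 11, 23 and 35 and at 138, 153 and 147 CPM in DOX (DESeq2 adjusted p = 0.0139). CD52 stood at 14.4, 7.15 and 5.68 CPM in DMSO and at 15.7, 19.5 and 18.0 CPM in DOX (DESeq2 adjusted p = 0.0216); its exons overlap those of UBXN11 on the other strand, and the strand setting of the counting was not given in the sources used here. Both followed CD34 in that DMSO 11 was the DMSO library nearest to DOX. The egress receptor S1PR1 fell by DESeq2's test, from 53.0 ± 15.7 to 30.2 ± 1.31 CPM (DESeq2 adjusted p = 0.00407; edgeR adjusted p = 0.0933), also with DMSO 11 nearest to DOX at 35.05 CPM.

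Among 14 partners and ligands of the markers, 12 were tested, edgeR called 0 and DESeq2 called 2 higher and 0 lower, against 3.08% and 6.89% of all genes (median 0.20). Without DMSO 11 edgeR called 5 of the 12 higher and 2 lower, against 23.7% and 25.7%. In these 2 genes DMSO 11 lay with the other DMSO libraries. UNC119, an adaptor that activates LCK, stood at 23.9, 24.4 and 22.1 CPM in DMSO 11, 23 and 35 and at 34.9, 31.6 and 32.4 CPM in DOX, a log2 fold change of 0.49 ± 0.09 (DESeq2 adjusted p = 0.00248; edgeR adjusted p = 0.0827). LAT, the membrane scaffold downstream of the T-cell receptor, stood at 4.25, 3.86 and 4.77 CPM in DMSO and at 7.38, 7.67 and 6.33 CPM in DOX, a log2 fold change of 0.73 ± 0.15 (DESeq2 adjusted p = 0.00463; edgeR adjusted p = 0.0848); a transcript gene with which it shares exons on the same strand makes its value uncertain. The DOX mean was higher than DMSO 11 alone by 0.46 for UNC119 and by 0.73 for LAT, close to the differences from DMSO 23 and DMSO 35 (0.50 and 0.72). LCK itself was at 685 ± 40.3 CPM in DMSO and 634 ± 19.7 in DOX and was not called by either tool, and the CD38 ligand gene PECAM1 had 0 counts in every library.

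Of 17 coreceptor and stage regulators, 15 were tested, edgeR called 0 and DESeq2 called 1 lower and 0 higher, near the 6.89% and 3.08% of all genes (median -0.10). Without DMSO 11 edgeR called 3 of the 15 higher and 6 lower, against 23.7% and 25.7%. LEF1, a partner of beta-catenin that acts in early thymocytes, stood at 642, 886 and 925 CPM in DMSO 11, 23 and 35 and at 577, 573 and 603 CPM in DOX (DESeq2 adjusted p = 0.0192; edgeR adjusted p = 0.105); its exons overlap those of LEF1-AS1 on the other strand. Of 13 pan leukocyte and T surface genes, all were tested and none was called by edgeR or DESeq2 (median 0.05), and without DMSO 11 edgeR called 4 higher and 3 lower; the integrin-associated protein CD47 was at 1124 ± 71.3 and 1196 ± 9.43 CPM and the transferrin receptor TFRC at 1338 ± 386 and 1606 ± 55.1 CPM. Among markers of other cells, the collagen gene COL1A1 also had DMSO 11 as the DMSO library nearest to DOX. It stood at 7.11, 2.44 and 2.77 CPM in DMSO 11, 23 and 35 and at 9.35, 9.18 and 9.70 CPM in DOX (DESeq2 adjusted p = 0.0132, edgeR adjusted p = 0.107). The summed level of the 5 fibroblast genes was 2.71 to 7.43 CPM in DMSO and 9.49 to 10.2 CPM in DOX, COL3A1 had 0 counts in every library, and COL1A2, DCN and PDGFRB were under 1 CPM in every library. The summed level of the 8 myeloid genes was 0.980 to 1.73 CPM in DMSO and 1.75 to 2.12 CPM in DOX, with CEBPA and S100A8 at 0 counts. Whether any fibroblast or myeloid cells were present was not tested, nor was any part of such cells in the CD34 values.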

How the data were processed

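RNA-seq libraries of 3 DMSO and 3 DOX samples were counted per Ensembl gene; the deposited count table holds raw read counts. DESeq2 1.12.4, STAR 2.5.2a, featureCounts and hg19 are named, with no role, per the submitters' processing notes. The authors' own comparison holds, per the file headers, a mean normalised signal, log2 fold changes with their errors, a score (the test statistic), p-values and adjusted p-values.

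Column names give the group, and their numbers match no label. The 92 spike-in rows held 0 counts and were left out. Totals were 28602145 to 29204148, so counting error is small for the 5 expressed markers and large for the other 5. No libraries agreed within sampling noise (mean chi-square per gene at least 4.57).

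Genes were filtered with filterByExpr, scaled by TMM and compared in edgeR 4.0.16 under R 4.3.3 (robust quasi-likelihood F test; group only; Benjamini-Hochberg over 15949 genes; threshold 0.05). The SE is the fold change over the root of F. DESeq2 1.42.0 (unfiltered counts, its own independent filtering), limma 3.58.1 (voom), other scalings and filters, a threshold of 0.01 and each library left out were alternatives. Added after the data were seen were DESeq2 after edgeR's filter and DESeq2 without DMSO 11. Exon lengths came from GENCODE 29, matched for 15462 tested genes, and promoters from RefSeq. The scripts were tested on simulated data.

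The members and lists were chosen with earlier results of these data known. Named were the 10 markers, their 3 most similar genes, and from each list the edgeR calls, otherwise up to 2 DESeq2 calls per direction, otherwise the 2 most expressed genes. The regulator list held 18 symbols for 17 genes, since MAZR is an older name of PATZ1. Some lists share genes (CD1A, CD1E, CD6, LCK, BCL11B and the CD3 chains), so their counts of calls are not separate observations. Genes named beyond this rule (KIT, CD33, FLT3, PROM1, LCK, PECAM1, CD1B, CD1C, CD1D, CD8BP, CD69, PTCRA, BLK, MS4A1, NKG7, NCR1, COL1A1's list) were chosen after their values were seen.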

Additional observations from a re-analysis of the deposited data

How the results depend on the processing

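Direction and side of the threshold were the same in 85 of 93 alternatives of the 6 tested markers. CD34 passed without a filter (log2 fold change 0.48, adjusted p = 0.0107), with DESeq2 after edgeR's filter (0.49) and without DMSO 11 (edgeR 0.71, DESeq2 0.71), and CD2 without DMSO 11 (edgeR 1.24, DESeq2 1.24). With 1 library left out CD34 ran from 0.35 to 0.71, CD2 from 0.13 to 1.24, CD4 from -0.022 to 0.46 and CD7 from -0.013 to 0.053. Adjusted p-values over all alternatives ran from 1.18e-22 to 0.356 for CD34 and from 3.40e-14 to 0.871 for CD2. CD4 and CD7, near 0, took their lowest value, below 0, without DMSO 35. The count of markers called higher was 1 of 10 with no filter and 1 of 5 with DESeq2 after edgeR's filter. It was 2 of 7 with DESeq2 without DMSO 11 and 0 to 2 of 6 or 7 with 1 library left out. The count called lower was 0 to 1, the 1 being CD8A in edgeR without DMSO 11, a fit it entered only through the DMSO libraries. Over all genes, edgeR called 2 higher and 3 lower of 15949. At a threshold of 0.01 these were 1 and 0, and with no filter 615 and 1146 of 31682. DESeq2 called 427 and 955 of 13869, after edgeR's filter 475 and 908 of 14093, and without DMSO 11 3073 and 3437 of 16665. In edgeR with 1 library left out the counts were 0 to 3894 and 0 to 4215 of 16289 to 16412 genes. The cause was not tested. The 3 ratios moved by less than 1 SD in all 21 alternatives, but that SD includes DMSO 11 and is 1.04 for CD2 to CD5; with 1 library left out the DOX minus DMSO difference ran from 0.40 to 1.39 for CD2 to CD5, from 0.093 to 0.20 for CD7 to CD5 and from 0.35 to 0.63 for CD34 to CD38, each highest without DMSO 11 and lowest without DMSO 23. With a minimum of 1 CPM in place of 10, F2RL2 replaced HSP90AA1 among the genes nearest to CD2, and no other similar gene changed. No paired analysis was possible because the count columns carry none of the replicate numbers of the labels. Depth limits CD1A, CD1E, CD4, CD8A and CD8B, which had at most 17 counts in a library.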

Other observations

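A few other surface genes, chosen after their values were seen, differed in whether DMSO 11 lay near the DOX libraries or near the other DMSO libraries. The hyaluronan receptor CD44 stood at 82.0, 34.4 and 40.1 CPM in DMSO 11, 23 and 35 and at 78.1, 78.4 and 79.7 CPM in DOX, so that DMSO 11 lay above the DOX libraries and the other DMSO libraries below them (edgeR adjusted p = 0.218). CD59, a brake on complement and a reported ligand of CD2, stood at 135.1, 87.4 and 84.8 CPM in DMSO and at 134.5, 137.8 and 133.2 CPM in DOX (edgeR adjusted p = 0.182). The activation marker CD69 was low in all DMSO libraries, at 0.322, 0.305 and 0.304 CPM, and at 0.797, 0.806 and 0.835 CPM in DOX. With 9 counts in each DMSO library, it passed the filter's minimum count of 10 only through the DOX libraries, where it was high. Its log2 fold change of 1.38 ± 0.26 (edgeR adjusted p = 0.0807) is therefore no support for a difference. DESeq2 gave it no adjusted p with all libraries. The DOX mean of CD69 exceeded DMSO 11 by 1.17. CD58, another ligand of CD2, stood at 6.25, 5.69 and 4.90 CPM in DMSO and at 7.35, 7.18 and 8.07 CPM in DOX, without overlap (edgeR adjusted p = 0.123). CD48, from the same list of partners and ligands, overlapped between groups. It stood at 10.3, 17.3 and 13.3 CPM in DMSO and at 12.3, 14.6 and 14.9 CPM in DOX (edgeR adjusted p = 0.926).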
